A study of Mus musculus with 6 samples.

Results

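The fibroblast growth factor (FGF) genes described here are the ligands, receptors, binding proteins, feedback inhibitors and response genes of FGF signalling in the embryonic mouse dorsal pancreas. They were taken by symbol: every Fgf gene with a number, Fgfr1 to Fgfr4, and 13 genes listed by name (Fgfrl1, Fgfbp1, Fgfbp3, Spry1, Spry2, Spry4, Spred1, Spred2, Dusp6, Etv1, Etv4, Etv5 and Il17rd). This gave 39 of the 24062 genes counted. By class they were 4 ligands of the Fgf7 subfamily, 11 other paracrine ligands, 3 endocrine ligands, 4 intracellular FGF homologues, 5 receptors, 2 binding proteins and 10 feedback and response genes.

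FGF ligands bind tyrosine kinase receptors on the cell surface together with heparan sulfate and start the Ras and MAP kinase cascade. In the developing pancreas the textbook axis crosses a tissue border: the mesenchyme secretes Fgf10, and the epithelium receives it through the epithelial splice form of Fgfr2, which maintains dividing progenitors. The cascade switches on the ETS factors Etv4 and Etv5, and it is damped by its own targets, the Sprouty and Spred proteins, the phosphatase Dusp6 and the membrane inhibitor Il17rd.

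RNA was sequenced from dorsal buds of mouse embryos in 6 libraries, each a pool of cells sorted by their red (Tomato) or green (GFP) fluorescence, and each the single library of its group. The groups were epithelium at E12.5, mesenchyme at E12.5 and epithelium at E14.5, each from control embryos (labelled mTmG, a red-to-green Cre reporter) and from Pbx mutant embryos, whose genotype includes mTmG+/-, Nkx2.5-Cre+/- and Pbx2+/-. Nkx2-5 is a mesenchymal gene in this organ, so the Cre marks mesenchyme rather than every bud cell; the labels do not say how green cells were obtained from embryos labelled mTmG alone. Totals on genes were between 14032569 and 20276045 counts.

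With 1 library per group no test across samples was possible, and no difference below has a replicate check. Levels are in CPM (counts relative to library size), with library sizes adjusted by TMM factors, and in each pair of values the control comes first. A fold compares 2 libraries, and the range in brackets is its exact 95% interval, which covers counting error only. A gene is said to be called higher or lower where the fold was at least 2, the interval left out 1 and the gene had 5 CPM or more in one library of the pair, in which case it counts as measured. To group measured genes by level, the geometric mean of the 2 libraries of a pair was used. Between the E12.5 mesenchymal libraries, genes at 5 to 20 CPM had an SD of 0.67 in their log2 ratio against 0.17 from counting, and 11.5% of them were called. At 100 CPM or more the SD was 0.29 against 0.04 and 0.837% were called, so a call on a gene at a few CPM, as on most of the ligands and on Fgfr3 in mesenchyme, weighs less than one on an abundant gene.

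The labels were checked on marker lists. The 28 general epithelial genes summed to 102.6 and 75.7 CPM in mesenchyme, against 4592 and 3937 CPM in E12.5 epithelium and 8335 and 4589 CPM in E14.5 epithelium. The claudin Cldn4, the small GTPase Rab25 and the junction protein Marveld3 had no read in either mesenchymal library. The 30 general mesenchymal genes were not absent from the epithelial libraries: they summed to 6731 and 7824 CPM at E12.5 and to 6909 and 14276 CPM at E14.5, against 14148 and 12969 CPM in mesenchyme, and none of them was at 0 in any library. The sum of this list in the E14.5 epithelium labelled mutant was thus as high as in E12.5 mesenchyme, and there was no mesenchymal library at E14.5. A list of 11 splanchnic mesenchyme factors was lower in that epithelial library, at 881.8 CPM against 1719 and 1738 CPM in mesenchyme. Other cell types also had markers above mesenchyme in E12.5 epithelium. The endothelial list summed to 384.5 and 453.5 CPM there against 125.8 and 127.9 CPM in mesenchyme. The leukocyte list had 485.2 and 319.2 against 92.4 and 43.4 CPM, and the neural and glial list 237.3 and 202.9 against 117.9 and 97.2 CPM. A level in a library labelled epithelium is thus not that of epithelial cells alone. In such bulk samples fewer cells of a type and less RNA per cell cannot be told apart.

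Pbx2, of which the mutants carry 1 mutant copy, was 1.60-fold lower in mutant mesenchyme (1.47 to 1.75; 89.9 and 56.0 CPM). In epithelium it stood at 54.5 and 49.7 CPM at E12.5 and at 34 and 47.3 CPM at E14.5, so in the E14.5 pair the library labelled mutant was the higher. The labels do not say how the mutant copy affects the transcript count, and the reason for this direction was not tested. The deposited table of the E12.5 control epithelium has a name of another form and date than the other 5. The labels do not say what this other name reflects. Any difference in handling that goes with it cannot be told apart from this group wherever the group is compared, which is in 3 of the 7 comparisons.

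The pair at the tissue border is shown first by the DNA around its starts. Fgf10 lies at chr13:118714699-118792573 and Fgfr2 at chr7:130162451-130266808 (GRCm38.p6), and 1 start window of each, from 250 bases before to 50 after the RefSeq start, is printed below with the window of the feedback gene Spry2 (chr14:105891947-105896819). Capitals mark matches, on either strand, to a PBX-HOX motif, TGATNNAT, or to an ETS motif, CCGGAA; the motifs do not overlap in these windows. Fgf10, plus strand, chr13:118714449-118714748, which holds neither motif:
Fgf10: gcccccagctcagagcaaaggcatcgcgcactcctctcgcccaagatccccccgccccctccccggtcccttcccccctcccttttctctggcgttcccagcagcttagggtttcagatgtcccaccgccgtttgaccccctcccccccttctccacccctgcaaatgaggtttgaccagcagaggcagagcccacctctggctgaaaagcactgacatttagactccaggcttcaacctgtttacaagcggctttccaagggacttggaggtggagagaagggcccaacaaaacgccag
Fgfr2, minus strand, chr7:130266759-130267058, with 1 PBX-HOX match:
Fgfr2: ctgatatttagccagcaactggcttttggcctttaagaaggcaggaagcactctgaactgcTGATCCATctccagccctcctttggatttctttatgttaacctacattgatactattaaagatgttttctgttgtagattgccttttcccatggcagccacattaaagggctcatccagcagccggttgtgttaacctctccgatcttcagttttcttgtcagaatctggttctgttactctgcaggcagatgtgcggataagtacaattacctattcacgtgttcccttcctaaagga
Spry2, minus strand, chr14:105896770-105897069, with 1 ETS match:
Spry2: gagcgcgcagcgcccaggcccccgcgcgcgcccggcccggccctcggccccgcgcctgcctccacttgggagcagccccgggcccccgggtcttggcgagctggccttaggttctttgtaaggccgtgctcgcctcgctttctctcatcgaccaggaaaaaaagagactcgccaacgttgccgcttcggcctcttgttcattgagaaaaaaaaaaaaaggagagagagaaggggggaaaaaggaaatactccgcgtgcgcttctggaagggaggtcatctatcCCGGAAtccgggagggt

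RefSeq windows were matched for 30 of the 39 genes. The PBX-HOX letters occurred in 4 of them (Dusp6, Etv1, Fgf13 and Fgfr2), which is 10.3% of their 39 windows against 8.85% of all 32851 windows. The ETS letters occurred in 5 (Fgf12, Fgf5, Fgfr4, Fgfrl1 and Spry2), 12.8% of windows against 14.9% of all. These shares are close to the background, and a match describes letters, not a bound site.

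Fgf10, the mesenchymal ligand, stood at 18.4 and 15.6 CPM in mesenchyme, 8.01 and 5.45 CPM in E12.5 epithelium and 0.274 and 8.69 CPM in E14.5 epithelium. Both mesenchymal libraries were above all 4 epithelial ones, and the E14.5 control epithelium, with 4 counts, was far below the other 5. Mesenchyme exceeded epithelium 2.30-fold in controls (1.90 to 2.81) and 2.85-fold in mutants (2.22 to 3.71). Between genotypes the mesenchymal values differed little, 1.19-fold lower in the mutant (0.993 to 1.41), an interval that includes 1. In E12.5 epithelium the mutant was 1.47-fold lower (1.12 to 1.93), not called, with an interval that leaves out 1.

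At E14.5 the epithelium labelled mutant held 121 Fgf10 counts against 4 in the control, 31.7-fold higher (12.1 to 118.3). Mesenchymal genes as a whole were higher in that library too: 22 of 30 measured were called higher and none lower, with a median log2 ratio of 1.30, and their part in the Fgf10 difference was not tested. Per 1000 counts of the mesenchymal list, a quantity chosen after the values were seen, Fgf10 was 1.30 and 1.20 in mesenchyme, 1.19 and 0.697 in E12.5 epithelium, and 0.0397 (0.0108 to 0.102) and 0.609 (0.505 to 0.727) in E14.5 epithelium. The E14.5 libraries still differed on this scale, and the control stood apart from the other 5. Fgf10 was not set against the splanchnic mesenchyme factors, whose median log2 ratio in the E14.5 pair was 2.16. Of 10 such factors measured there, 8 passed the limit for a call upward in the library labelled mutant and 1 downward. Nkx2-5, from that list, had no read in the E14.5 control. The part of these factors in the Fgf10 difference was not tested either.

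Fgfr2, the receptor for Fgf10, was at 155.5 and 81.4 CPM in mesenchyme, 183.6 and 111.1 CPM in E12.5 epithelium and 94.1 and 64.0 CPM in E14.5 epithelium. The gene count does not separate the epithelial from the mesenchymal splice form, and the sum was of like size in both fractions: mesenchyme was 1.18-fold below epithelium in controls (1.12 to 1.24) and 1.37-fold below in mutants (1.27 to 1.47). The library labelled mutant was the lower one in each of the 3 pairs. The folds were 1.91 in mesenchyme (1.78 to 2.05), 1.65 in E12.5 epithelium (1.56 to 1.75) and 1.47 in E14.5 epithelium (1.35 to 1.60), none of them called at 2-fold.

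The 3 genotype pairs share no library. Of 10627 genes measured in all 3, 70 (0.659%) had log2 ratios of -0.5 or less in every pair, and of the 21 FGF genes among them 2 did, Fgfr2 and Fgfr3; the limit of 0.5 was chosen after these values were seen. At or above 0.5 in every pair there were 67 genes (0.630%) and no FGF gene. Without that limit, 3 of the 21 were below 0 in every pair (Fgfr2, Fgfr3 and Spred2), where 15.6% of all genes were, and 5 were above 0 (Fgf5, Etv4, Spry1, Spry2 and Spry4), where 14.9% were. For Fgfr2 the E14.5 direction rests on the scaling: with ratios set against the median of the epithelial list its log2 ratio was 0.39 instead of -0.56, and per 1000 epithelial list counts it was 11.3 (10.7 to 11.9) in the control and 13.9 (13 to 14.9) in the mutant. At E12.5 the ratio relative to epithelial genes remained below 0, at -0.53, and the values per 1000 list counts were 40.0 and 28.2.

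The splicing regulators Esrp1 and Esrp2, which direct the epithelial form of Fgfr2, were counted with the other pathway genes. Esrp1 was at 0.0671 and 0.129 CPM in mesenchyme, 76.9 and 47.2 CPM in E12.5 epithelium and 95.8 and 40.9 CPM in E14.5 epithelium. Esrp2 was at 1.41 and 0 CPM in mesenchyme, 55.1 and 49.9 CPM in E12.5 epithelium and 61.0 and 25 CPM in E14.5 epithelium. Both regulators were thus near or at 0 in mesenchyme. In the E14.5 epithelium labelled mutant both were called lower, Esrp1 2.34-fold (2.12 to 2.59) and Esrp2 2.44-fold (2.15 to 2.77), alongside a general epithelial list of which they are part and of which 12 of 27 measured were called lower; how far one accounts for the other was not tested.

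**Figure D1:**
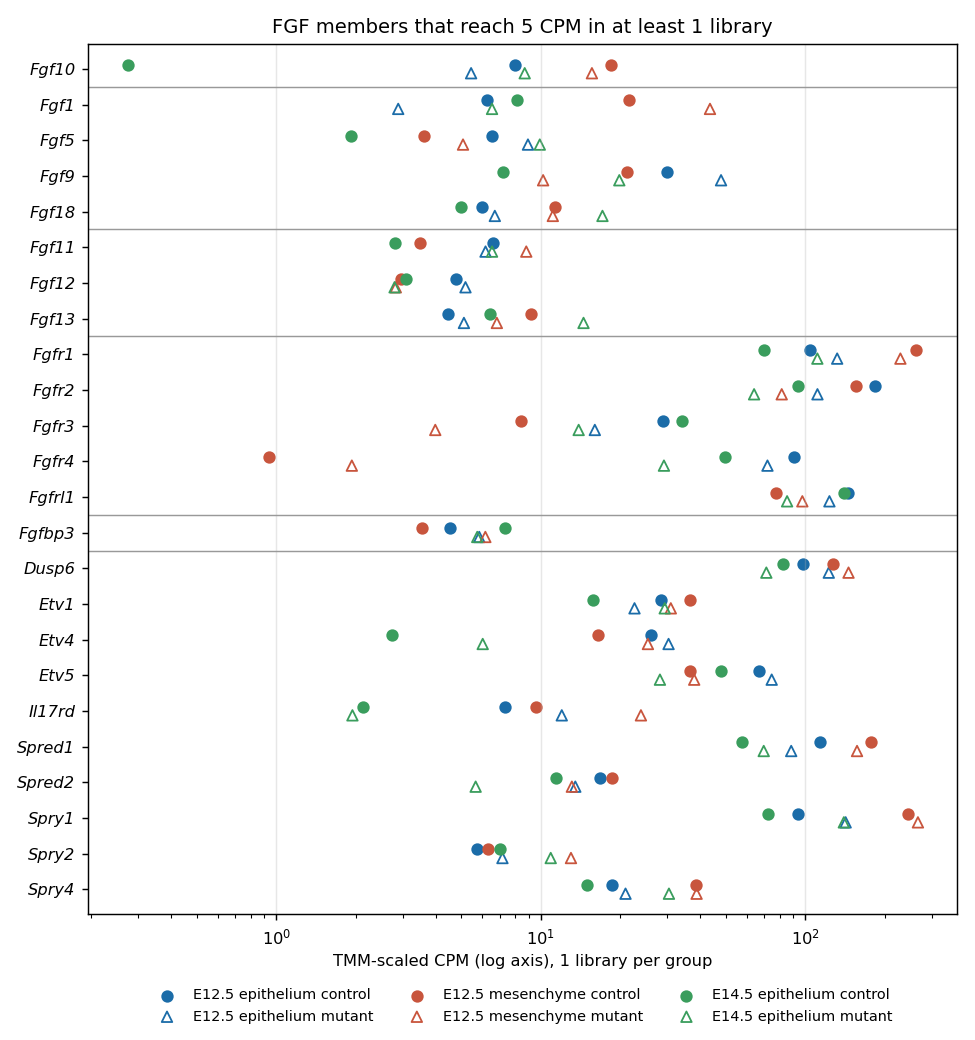
Levels of the 24 FGF genes at 5 CPM or more in some library, in TMM-scaled CPM on a log axis, with 1 point per library and classes divided by lines. Fgf10 is far lower in the E14.5 control epithelium (0.274 CPM) than elsewhere, and Fgfr4 is near 1 CPM in both mesenchymal libraries (0.939 and 1.93 CPM).

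Across the class of secreted ligands most genes were silent or nearly so. In all, 24 of the 39 genes reached 5 CPM in a library and 15 did not, the highest of these being Fgfbp1 at 3.52 CPM and then Fgf16 at 2.40 CPM; just above the limit came Fgf12 at 5.19 CPM and Fgfbp3 at 7.33 CPM. The 15 were Fgf2, Fgf3, Fgf4, Fgf6, Fgf7, Fgf8, Fgf14, Fgf15, Fgf16, Fgf17, Fgf20, Fgf21, Fgf22, Fgf23 and Fgfbp1, which include all 3 endocrine ligands. No read fell on Fgf4, Fgf6, Fgf17, Fgf21 or Fgf23, where 3 counts, the limit that a count of 0 allows, correspond to between 0.141 and 0.215 CPM. Fgf7, the close relative of Fgf10 that is also known as a mesenchymal ligand, had 0 and 5 counts in mesenchyme, 38 and 2 in E12.5 epithelium and 0 and 8 in E14.5 epithelium.

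Fgf1, which can bind every FGF receptor, stood at 21.6 and 43.6 CPM in mesenchyme, 6.26 and 2.89 CPM in E12.5 epithelium and 8.15 and 6.54 CPM in E14.5 epithelium. Mesenchyme exceeded epithelium 3.45-fold in controls (2.81 to 4.25) and 15.1-fold in mutants (11.1 to 21). Within mesenchyme the mutant was 2.02-fold higher (1.77 to 2.31), and within E12.5 epithelium it was 2.17-fold lower (1.53 to 3.12), a call that is lost relative to the epithelial genes. Per 1000 mesenchymal list counts Fgf1 was 1.53 and 3.36 in mesenchyme and 0.931 and 0.370 in E12.5 epithelium, so the directions were the same on that scale. In E14.5 epithelium it was 1.18 (0.977 to 1.41) and 0.458 (0.369 to 0.562) per 1000 mesenchymal list counts, while CPM gave 1.25-fold lower (0.941 to 1.66) and the scaling to epithelial genes a log2 ratio of 0.62, so no direction holds there across the scales.

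Fgf9, an epithelial and mesothelial ligand in several organs, was at 21.2 and 10.2 CPM in mesenchyme, 30.1 and 48.0 CPM in E12.5 epithelium and 7.19 and 19.8 CPM in E14.5 epithelium. The mutant was 2.07-fold lower in mesenchyme (1.71 to 2.52), 1.59-fold higher in E12.5 epithelium (1.43 to 1.77, not called) and 2.76-fold higher in E14.5 epithelium (2.19 to 3.48). The fraction difference was therefore 1.42-fold in controls (1.24 to 1.63) and 4.70-fold in mutants (3.95 to 5.61), with epithelium the higher. Mesothelial markers, a list of 9 genes in the tables, moved the same way between genotypes, summing to 193.8 and 122.8 CPM in mesenchyme, 257.0 and 368.3 CPM in E12.5 epithelium and 380.7 and 593.8 CPM in E14.5 epithelium. So did 13 smooth muscle and pericyte genes, at 594.0 and 398.9 CPM, 308.7 and 512.9 CPM, and 236.0 and 932.1 CPM. Between stages the mesothelial sum was higher at E14.5 in the epithelium of both genotypes, where Fgf9 was lower. The smooth muscle and pericyte sum was lower at E14.5 in controls and higher in mutants. The mesothelial list shares Krt19 with the epithelial list. The part of either list in Fgf9 was not tested. At E14.5 Fgf9 was 1.04 (0.851 to 1.26) and 1.39 (1.23 to 1.56) per 1000 mesenchymal list counts. These intervals overlap only narrowly, and their overlap is not a test of the difference. Per 1000 epithelial list counts it was 0.863 and 4.32.

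Fgf18, which signals mainly in bone, lung and brain, was at 11.3 and 11.1 CPM in mesenchyme, 5.98 and 6.70 CPM in E12.5 epithelium and 5.0 and 17.1 CPM in E14.5 epithelium. The interval of the genotype fold left out 1 in the E14.5 pair, 3.42-fold higher in the mutant (2.62 to 4.51), and included 1 in the other two pairs. Fgf5, known as a brake on hair growth, was at 3.62 and 5.08 CPM in mesenchyme, 6.55 and 8.94 CPM in E12.5 epithelium and 1.92 and 9.91 CPM in E14.5 epithelium. It was 5.17-fold higher in the E14.5 epithelium labelled mutant (3.42 to 8.06). Per 1000 mesenchymal list counts the E14.5 values were 0.278 and 0.694 for Fgf5 and 0.724 and 1.20 for Fgf18, smaller differences than in CPM.

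On levels per kilobase of the longest protein-coding transcript, Fgf18 led the secreted ligands in control mesenchyme at 10.4 CPM per kb, before Fgf9 at 5.90, Fgf1 at 5.42 and Fgf10 at 4.48. In mutant mesenchyme Fgf1 at 11.0 and Fgf18 at 10.2 CPM per kb stood above Fgf10 at 3.78, Fgf9 at 2.85 and Fgf5 at 2.03. In E12.5 epithelium Fgf9 led with 8.39 and 13.4 CPM per kb in control and mutant, followed by Fgf18 with 5.51 and 6.17. Fgf10 was thus not the most abundant ligand transcript of either mesenchymal library on this scale.

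The intracellular homologues Fgf11 to Fgf14 are not secreted and act on sodium channels and the cytoskeleton rather than through the receptors. Fgf11 was at 3.49 and 8.81 CPM in mesenchyme, 6.59 and 6.18 CPM in E12.5 epithelium and 2.81 and 6.54 CPM in E14.5 epithelium, called higher in mutant mesenchyme (2.53-fold, 1.82 to 3.55) and in the E14.5 library labelled mutant (2.33-fold, 1.59 to 3.45). Fgf13 was at 9.19 and 6.82 CPM and at 4.47 and 5.12 CPM in mesenchyme and E12.5 epithelium, and with 94 and 202 counts was called higher in the E14.5 library labelled mutant (2.25-fold, 1.76 to 2.91). Per 1000 mesenchymal list counts the E14.5 values of Fgf13 were 0.932 (0.753 to 1.14) and 1.02 (0.881 to 1.17), with overlapping intervals. Of the neural and glial markers 6 of 10 measured were also called higher in that E14.5 library, and their part was not tested. Fgf12 lay between 2.80 and 5.19 CPM in the 6 libraries.

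Of the other receptors, Fgfr4 divided the fractions most sharply. It was at 0.939 and 1.93 CPM in mesenchyme, 90.8 and 71.9 CPM in E12.5 epithelium and 49.9 and 29.2 CPM in E14.5 epithelium, so the fractions did not overlap. Mesenchyme was 96.7-fold lower in controls (57.5 to 177.1) and 37.3-fold lower in mutants (25.9 to 55.5). Per 1000 epithelial list counts Fgfr4 was 19.8 and 18.3 at E12.5 and 5.98 and 6.37 at E14.5, so its genotype values in epithelium, 1.26-fold lower at E12.5 (1.17 to 1.36) and 1.71-fold lower at E14.5 (1.51 to 1.93) in CPM, lay close together once set against that list, and the E14.5 log2 ratio turned from -0.77 to 0.17 relative to the epithelial genes.

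Fgfr3 was at 8.38 and 3.99 CPM in mesenchyme, 29.0 and 16.0 CPM in E12.5 epithelium and 34.1 and 13.9 CPM in E14.5 epithelium. All 4 epithelial libraries were above both mesenchymal ones, and the mutant was the lower in each pair: 2.10-fold in mesenchyme (1.54 to 2.90), 1.81-fold in E12.5 epithelium (1.56 to 2.10, not called) and 2.45-fold in E14.5 epithelium (2.07 to 2.91). Relative to the epithelial genes the E14.5 log2 ratio shrank from -1.29 to -0.35 and the call was lost, with the direction kept. Of the merged exons of Fgfr3, 13.9% overlap a gene on the opposite strand, and the strand setting of the counts is not given, so its reads are uncertain to that extent.

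Fgfr1, the receptor typical of mesenchyme, was at 262.9 and 228.7 CPM in mesenchyme, 104.0 and 131.9 CPM in E12.5 epithelium and 69.5 and 111.0 CPM in E14.5 epithelium. Both mesenchymal libraries were above every epithelial one, 2.53-fold in controls (2.40 to 2.66) and 1.73-fold in mutants (1.64 to 1.83). Per 1000 mesenchymal list counts it was 18.6 and 17.6 in mesenchyme, 15.5 and 16.9 in E12.5 epithelium, and 10.1 and 7.77 in E14.5 epithelium. Fgfrl1, a receptor-like protein without a kinase domain, was at 77.6 and 97.4 CPM in mesenchyme, 145.4 and 123.3 CPM in E12.5 epithelium and 139.9 and 85.3 CPM in E14.5 epithelium.

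Per kilobase of transcript, the mix of the 4 kinase receptors differed between fractions and between genotypes. In control E12.5 epithelium Fgfr2 made up 43.7% of the receptor transcripts, Fgfr4 28.0%, Fgfr1 21.2% and Fgfr3 7.01%. In control mesenchyme Fgfr1 made up 57.6%, Fgfr2 39.9%, Fgfr3 2.18% and Fgfr4 0.312%. In the library labelled mutant the share of Fgfr1 was the larger in each pair: 69.0% in mesenchyme, 33.8% against 21.2% in E12.5 epithelium and 45.0% against 23.5% in E14.5 epithelium.

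The ratio of Fgfr2 to Fgfr1 per kilobase gives the same contrast without the library scaling. It was 0.691 (0.657 to 0.728) and 0.416 (0.390 to 0.444) in mesenchyme, 2.06 (1.96 to 2.18) and 0.985 (0.923 to 1.05) in E12.5 epithelium, and 1.58 (1.46 to 1.72) and 0.674 (0.620 to 0.733) in E14.5 epithelium. The control was the higher in each pair, with intervals that did not overlap. The mesenchymal list moved opposite to this ratio in both epithelial pairs, being higher in the library labelled mutant. In mesenchyme the list was lower in the mutant (14148 and 12969 CPM), as was the ratio. The part of the list was not tested. Lengths of merged exons, an alternative chosen after seeing the data, gave ratios of 0.565 and 0.340, 1.69 and 0.805, and 1.30 and 0.551, and made Fgfr4 the leading receptor in 3 of the 4 epithelial libraries (44.2%, 43.5% and 40.2%), so the order of Fgfr2 and Fgfr4 there depends on the length used.

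**Figure D2:**
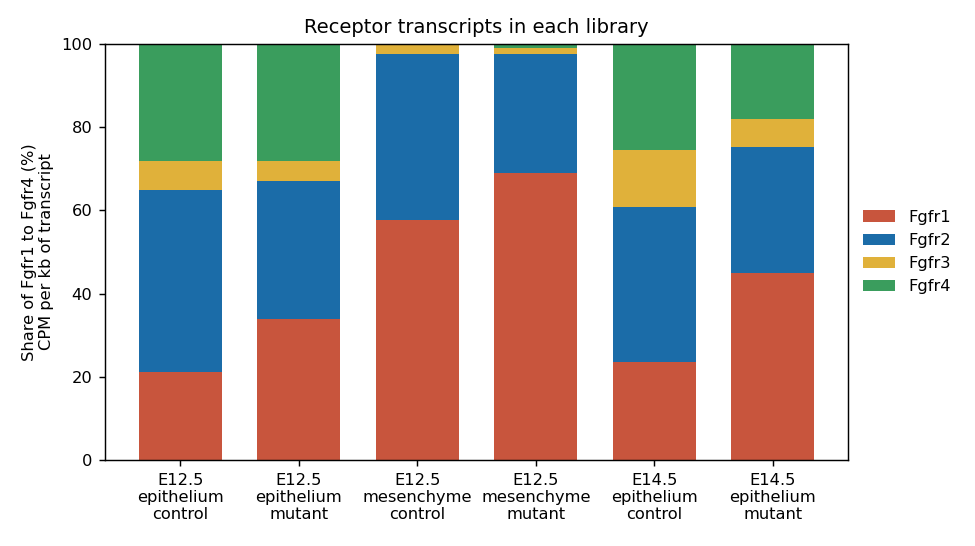
Share of Fgfr1, Fgfr2, Fgfr3 and Fgfr4 in the summed receptor transcripts of each library, in percent, from CPM per kb of the longest protein-coding transcript, 1 library per bar. Fgfr4 is close to 0 in mesenchyme (0.312% and 0.883%), and in each pair the library labelled mutant has the larger share of Fgfr1.

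Of the binding proteins, which release FGFs from the matrix, Fgfbp3 ranged from 3.55 to 7.33 CPM without a call in any comparison. Fgfbp1 had no read in mesenchyme, 10 and 8 counts in E12.5 epithelium and 41 and 49 counts in E14.5 epithelium, below the limit for a call throughout.

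The feedback and response genes together summed to 710.4 and 752.0 CPM in mesenchyme, 475.7 and 534.1 CPM in E12.5 epithelium and 314.3 and 393.4 CPM in E14.5 epithelium. Spry1 was at 244.2 and 266.4 CPM in mesenchyme, 94.2 and 142.0 CPM in E12.5 epithelium and 72.3 and 139.8 CPM in E14.5 epithelium, highest in mesenchyme in both genotypes. Of its exons 24.4% overlap a gene on the opposite strand. Spry4 was at 38.5 and 38.8 CPM, 18.6 and 20.9 CPM, and 15.0 and 30.5 CPM in the same order.

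Spry4 ran close to the mesenchymal list across the 6 libraries, and Spry1 did so within the E14.5 pair. Spry4 per 1000 mesenchymal list counts lay between 2.14 and 2.99 in all 6 libraries, and its E14.5 values were 2.17 and 2.14, although in CPM it was called 2.03-fold higher there (1.72 to 2.41), a call lost with DESeq2 size factors. Spry1 per 1000 list counts ran from 9.79 to 20.5; its E14.5 values were 10.5 and 9.79, against 1.93-fold higher in CPM (1.79 to 2.09). Spry2 was at 6.30 and 13 CPM in mesenchyme, 5.75 and 7.16 CPM in E12.5 epithelium and 6.99 and 10.9 CPM in E14.5 epithelium, and was called by genotype in mesenchyme, 2.06-fold higher in the mutant (1.61 to 2.66), where the mesenchymal list was lower in the mutant. Spry2 was not set against the list, and the part of the list in the Sprouty values was not tested.

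Etv4 and Etv5, the ETS factors used as readouts of Fgf10 signalling in branching organs, were higher in E12.5 epithelium than in mesenchyme in both genotypes, without a call. Etv5 was at 36.6 and 38.0 CPM in mesenchyme, 67.0 and 74.6 CPM in E12.5 epithelium and 47.9 and 28.2 CPM in E14.5 epithelium, a fraction difference of 1.83-fold in controls (1.66 to 2.03) and 1.96-fold in mutants (1.77 to 2.17). Etv4 was at 16.4 and 25.4 CPM in mesenchyme, 26.2 and 30.4 CPM in E12.5 epithelium and 2.74 and 6.03 CPM in E14.5 epithelium. At E14.5 Etv4 was called 2.2-fold higher in the library labelled mutant (1.49 to 3.29) and Etv5 was 1.70-fold lower (1.5 to 1.92). Relative to the epithelial genes their log2 ratios there were 2.08 for Etv4, still called higher, and 0.18 for Etv5, not called. Set against the mesenchymal list instead, Etv4 was 0.397 and 0.423 per 1000 list counts, with overlapping intervals, so the size of its E14.5 difference depends on the list it is set against. Etv1 was at 36.6 and 31.0 CPM, 28.4 and 22.6 CPM, and 15.8 and 29.4 CPM in the same order.

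Il17rd, which holds back FGF receptor signalling at the membrane, was at 9.59 and 23.9 CPM in mesenchyme, 7.30 and 12 CPM in E12.5 epithelium and 2.12 and 1.94 CPM in E14.5 epithelium. The mutant was 2.49-fold higher in mesenchyme (2.05 to 3.05) and 1.64-fold higher in E12.5 epithelium (1.31 to 2.04, not called), while both E14.5 libraries were low. Dusp6, the phosphatase of ERK, stood within 71.2 to 145.6 CPM in the 6 libraries and was called in no comparison. Spred1 was at 176.5 and 156.8 CPM in mesenchyme, 113.5 and 88.4 CPM in E12.5 epithelium and 57.6 and 69.6 CPM in E14.5 epithelium, without a call. Spred2 was at 18.6 and 13.1 CPM, 16.7 and 13.5 CPM, and 11.4 and 5.67 CPM.

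Counted over the whole set, mesenchyme against E12.5 epithelium gave 6 of 22 measured genes called higher in controls (Fgf10, Fgf1, Fgf13, Fgfr1, Spry1 and Spry4), where 7.00% of all genes were, and 2 called lower (Fgfr3 and Fgfr4), where 13.6% were. The calls of Fgf13 (2.05-fold, 1.57 to 2.70) and Spry4 (2.07-fold, 1.82 to 2.36) were lost in plain CPM. In mutants 3 of 24 were called higher (Fgf10, Fgf1 and Il17rd) against 5.42% of all genes, and 3 lower (Fgf9, Fgfr3 and Fgfr4) against 12.9%. Il17rd, 2.0-fold (1.67 to 2.40), was at the limit and lost its call in plain CPM and with DESeq2 size factors. The median log2 ratio was 0.26 in controls and 0.33 in mutants, against 0.03 over all genes in both.

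**Figure D3:**
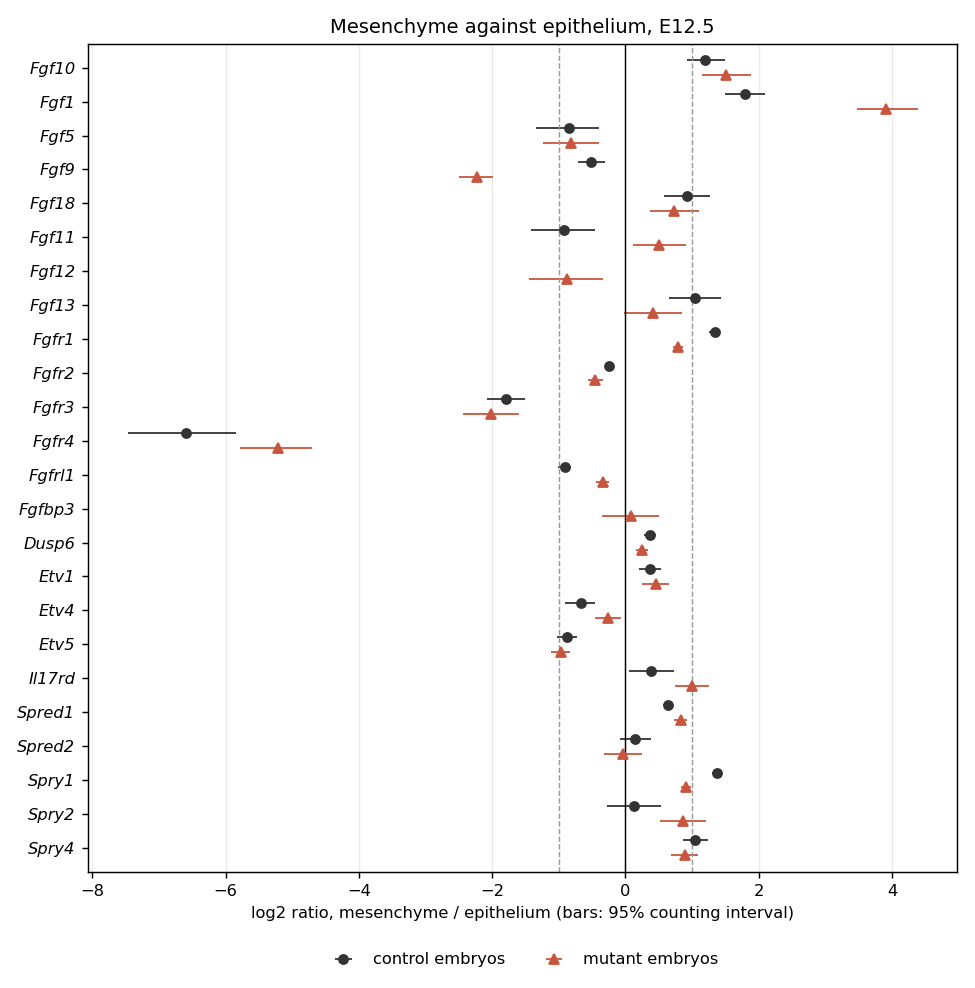
Log2 ratio of mesenchyme to epithelium at E12.5 for the measured FGF genes, for controls and mutants, with 95% counting intervals and dashed lines at 2-fold. Fgfr4 lies farthest to the left in both genotypes and Fgf1 farthest to the right, at 3.45-fold in controls and 15.1-fold in mutants.

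The genotype comparison sets Pbx mutant libraries against control libraries. The mutant labels also carry Nkx2.5-Cre+/- and mTmG+/-, and the control labels give mTmG alone. By these labels the Pbx alleles, the Cre and the reporter copies cannot be told apart. In E12.5 mesenchyme 4 of 22 measured genes were called higher (Fgf1, Fgf11, Il17rd and Spry2), where 1.96% of all genes were, and 2 lower (Fgf9 and Fgfr3), where 3.50% were, with medians of 0.03 for the FGF genes and -0.01 for all genes. In E12.5 epithelium none of 24 was called higher, against 1.79% of all genes, and 1 was called lower (Fgf1), against 3.21%, with medians of 0.16 and 0.00. By the geometric mean of the mesenchymal pair, Fgf11, Spry2, Fgfr3, Fgf9 and Il17rd lay at 5 to 20 CPM, where 11.5% of all genes were called in either direction.

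In E14.5 epithelium 8 of 22 measured genes were called higher (Fgf10, Fgf5, Fgf9, Fgf18, Fgf11, Fgf13, Etv4 and Spry4), where 9.64% of all genes were, and 2 lower (Fgfr3 and Spred2), where 6.40% were. The median was 0.66 for the FGF genes and -0.03 for all genes, while the general mesenchymal list had 1.30 and the epithelial list -0.94; their part in the FGF counts was not tested. Of the 8, all but Spry4 were below 20 CPM in both libraries. Among all genes with a geometric mean of 5 to 20 CPM in this pair, 25.7% were called in either direction, with an SD of 0.95 in the log2 ratio. Fgf9, Fgf18 and Fgf13 fall in that range. Fgf10, Fgf5, Fgf11 and Etv4 have a geometric mean below 5 CPM, a range for which no share of calls was computed. The ligands and intracellular homologues made up 6 of the 8. Spred2, 2.02-fold lower (1.53 to 2.67), lost its call in plain CPM. Relative to the general epithelial genes, which moves the median of all genes by 0.94 and turns the split of all calls from 60.1% to 97.2% higher, 13 FGF genes were called higher and none lower, with Fgfr3 and Spred2 no longer called. At E12.5 the same scaling moved the median by 0.19 and the split from 35.8% to 61.3% higher.

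**Figure D4:**
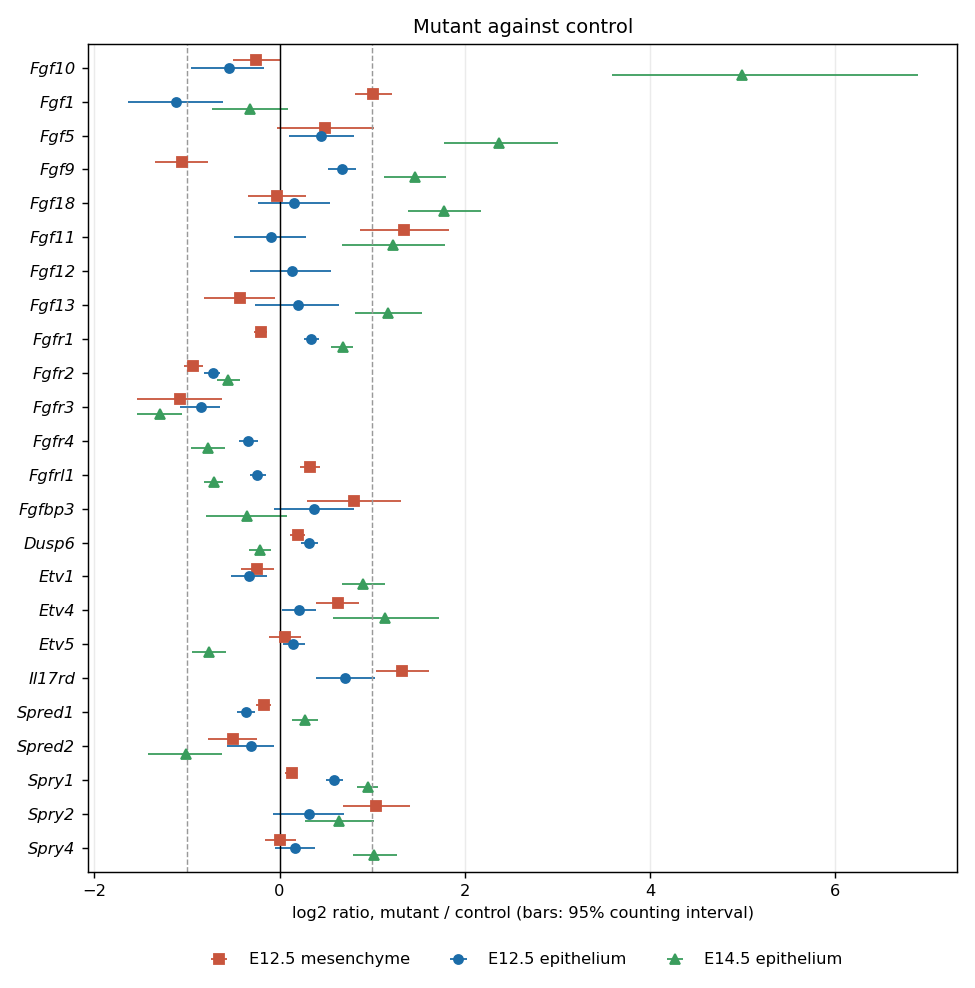
Log2 ratio of mutant to control for the measured FGF genes in E12.5 mesenchyme, E12.5 epithelium and E14.5 epithelium, with 95% counting intervals and dashed lines at 2-fold. Fgfr2 and Fgfr3 lie to the left of 0 in all 3 pairs on this scaling (for Fgfr2 at E14.5 not relative to the epithelial genes), and Fgf10 at E14.5 lies farthest to the right at 31.7-fold.

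Between stages, Etv4, Il17rd and Fgf9 were lower at E14.5 than at E12.5 in the epithelium of both genotypes. In controls 6 of 23 measured genes were called lower at E14.5 (Fgf10, Fgf5, Fgf9, Fgf11, Etv4 and Il17rd), where 11.2% of all genes were, and none higher, where 6.53% were; the medians were -0.55 for the FGF genes and -0.03 for all genes. Etv4 was 9.57-fold lower (6.94 to 13.5), Fgf9 4.19-fold (3.40 to 5.20), Il17rd 3.44-fold (2.33 to 5.23) and Fgf10 29.2-fold (11.2 to 108.5). Of the general mesenchymal list 11 of 29 measured were called lower and 4 higher, with a median log2 ratio of -0.69. Its sum did not fall, at 6731 CPM at E12.5 and 6909 CPM at E14.5. Of a list of splanchnic mesenchyme factors 6 of 10 measured were called lower and 1 higher, with a median of -1.58. The part of either list was not tested. Of all calls in this pair 36.9% were higher; plain CPM shifted the all-gene median by -0.16 and that share to 24.3%, and the scaling to epithelial genes shifted them by -0.57 and to 8.82%.

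In the epithelium labelled mutant 6 of 24 genes were called lower at E14.5 (Fgf9, Fgfr4, Etv4, Etv5, Il17rd and Spred2), against 5.89% of all genes, and 3 higher (Fgf1, Fgf18 and Fgf13), against 6.27%; the medians were -0.23 and 0.00. Etv4 was 5.04-fold lower (3.99 to 6.44), Il17rd 6.17-fold (4.10 to 9.61), Etv5 2.64-fold (2.35 to 2.97) and Fgf9 2.42-fold (2.11 to 2.79). Etv4, Il17rd and Fgf9 were thus called lower at E14.5 in both genotypes, in comparisons that share no library. Here 7 of 30 mesenchymal genes were called higher and 1 lower. Fgf10 in this pair was 1.59-fold higher at E14.5 (1.20 to 2.13), not called.

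**Figure D5:**
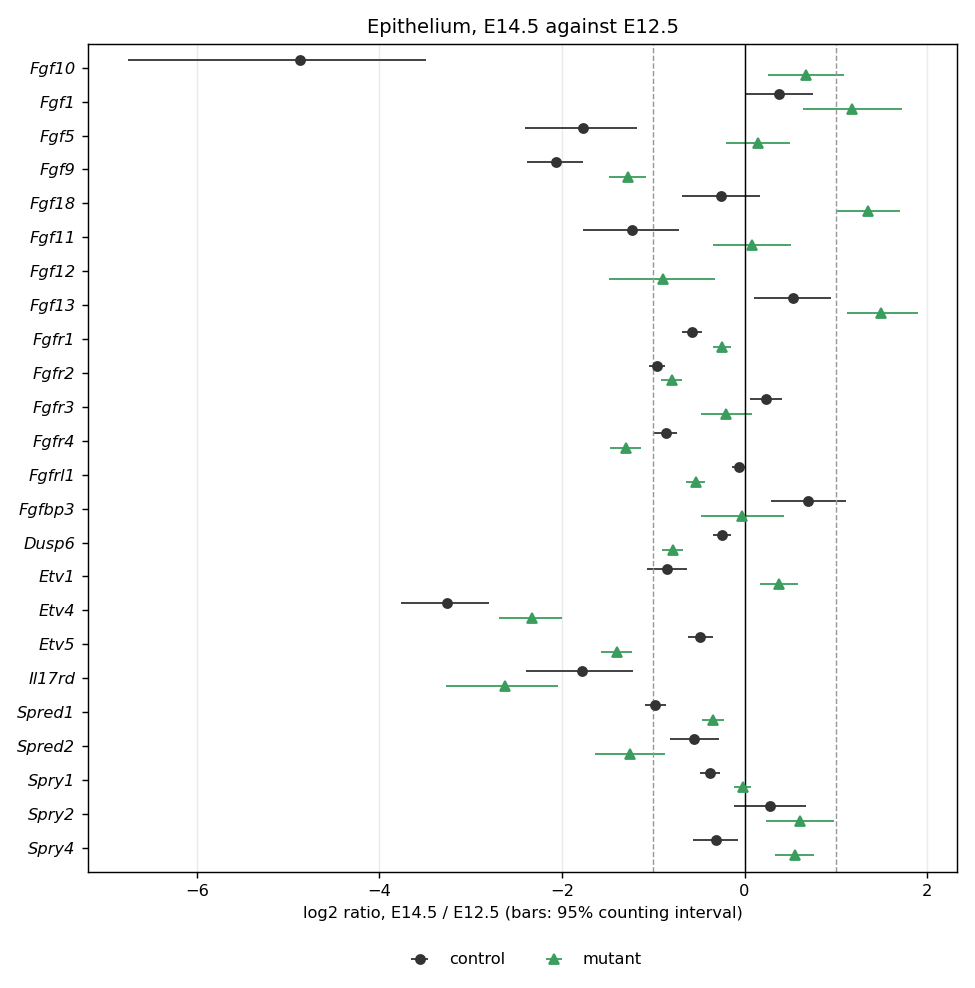
Log2 ratio of E14.5 to E12.5 epithelium for the measured FGF genes for controls and for libraries labelled mutant, with 95% counting intervals and dashed lines at 2-fold. Etv4, Il17rd and Fgf9 lie left of the 2-fold line in both genotypes, and Fgf10 lies far to the left in controls (29.2-fold lower) but right of 0 in mutants (1.59-fold higher).

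A list of 76 other FGF pathway genes (coreceptors, adaptors, kinases, phosphatases and targets) was counted beside them, of which 74 were in the tables. In the genotype comparisons 2 of 66 measured were called higher and 1 lower in mesenchyme, where 1.96% and 3.50% of all genes were. In E12.5 epithelium 1 of 70 was higher and none lower (all genes 1.79% and 3.21%), and in E14.5 epithelium 8 of 69 were higher and 4 lower (9.64% and 6.40%). Mesenchyme against epithelium gave 8 higher and 11 lower of 70 in controls (7.00% and 13.6%) and 5 higher and 10 lower of 70 in mutants (5.42% and 12.9%). Between stages 2 of 69 were higher and 12 lower in controls (6.53% and 11.2%), and 4 of 70 higher and 3 lower in mutants (6.27% and 5.89%).

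The heparan sulfate sulfatase Sulf1, which trims the sugar chains that FGFs need, was at 99.4 and 37.2 CPM in mesenchyme, 2.67-fold lower in the mutant (2.43 to 2.95), and at 166.0 and 154.3 CPM in E12.5 epithelium and 98.7 and 188.7 CPM in E14.5 epithelium. Its relative Sulf2 was at 766.6 and 572.8 CPM, 293.8 and 383.0 CPM, and 152.8 and 314.8 CPM in the same order. The MAP kinase phosphatase Dusp4 was at 6.64 and 14.4 CPM in mesenchyme, 2.17-fold higher in the mutant (1.71 to 2.78), and at 17.6 and 15.0 CPM and 11.4 and 6.82 CPM in epithelium at E12.5 and E14.5. Sulf1 and Dusp4 were therefore among the 3 pathway genes called by genotype in mesenchyme.

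The T-box factors Tbx2 and Tbx3 and the glypican Gpc1 were, like the mesenchymal list, higher in mesenchyme than in E12.5 epithelium in both genotypes. They were also higher in the E14.5 library labelled mutant than in its control. There they were below both E12.5 mesenchymal libraries (Tbx2 at 168.5 CPM against 486.5 and 467.8 CPM). The list sum, 14276 CPM, was not (14148 and 12969 CPM in mesenchyme). Stage and fraction both differ between these libraries, and the part of the list was not tested. Tbx3 was at 201.5 and 181.9 CPM in mesenchyme, 36.1 and 61.8 CPM in E12.5 epithelium and 8.56 and 41.7 CPM in E14.5 epithelium, 4.86-fold higher in the last pair (4.00 to 5.95). Tbx2 was 3.45-fold higher there (3.18 to 3.76), the syndecan Sdc3 2.69-fold (2.37 to 3.07) and Gpc1 2.31-fold (2.18 to 2.45). Myc, a growth factor target, ran the other way at 325.5 and 121.4 CPM, 2.68-fold lower in the E14.5 library labelled mutant (2.54 to 2.84). Gpc6 and the cyclin Ccnd1 were called by fraction in both genotypes, Gpc6 higher in mesenchyme (2.29-fold in controls and 2.28-fold in mutants) and Ccnd1 lower (2.40-fold and 2.63-fold).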

How the data were processed

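Cells of dissected dorsal buds were sorted by Tomato and GFP fluorescence, sorted fractions were frozen and pooled, and RNA was purified from the pools, per the labels' protocols. For each of 6 libraries the authors deposited raw counts for each gene symbol in 1 table, described as deduplicated by its name. The submitters' processing notes list mm10, Cuffdiff 2.2.1 and Cufflinks 2.2.1. How reads were aligned and counted, and whether strand was used, is not given in the sources used here. The 5 summary lines of each table (4.69% to 8.84% of reads in no gene, 1.53% to 1.72% ambiguous, 13.72% to 20.05% aligned more than once) were left out of totals.

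Counts were scaled with TMM factors of 0.941 to 1.047 (edgeR 4.0.16, R 4.3.3). Each group is 1 library, so folds were given with exact conditional binomial (Clopper-Pearson) 95% intervals, in Python 3.11.15 with numpy 2.4.6, pandas 2.3.3 and scipy 1.17.1; figures used matplotlib 3.10.9. PCR copies are not separate molecules, so these intervals and the floor of 3 counts cover counting error alone. The calculation was tested on simulated data. Transcript lengths came from GENCODE M21, which is on mm10, and positions and start windows from RefSeq (GRCm38.p6); all 39 symbols matched both annotations, and 30 had a start window. FGF genes at 5 CPM or more in a library were named, the others counted, and up to 12 other pathway genes called in the most comparisons were named. The genes and lists were chosen with earlier results of these data known. Alternatives were plain CPM, size factors from DESeq2 1.42.0, filters at 1 and 20 CPM or none, limits of 1.5-fold and 4-fold, and ratios relative to the general epithelial genes; merged exon lengths and levels per 1000 marker list counts were added after seeing the data. The rest of the mutant genotype is not reported here.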

Additional observations from a re-analysis of the deposited data

Results flagged for a closer look

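Fgf1 was called by genotype in opposite directions in the E12.5 fractions: 2.17-fold lower in epithelium and 2.02-fold higher in mesenchyme, so that the log2 ratio in epithelium minus that in mesenchyme was -2.13. Fgf9 was called in opposite directions in E14.5 epithelium, 2.76-fold higher, and E12.5 mesenchyme, 2.07-fold lower, a difference of 2.51 between the log2 ratios; stage and fraction both differ between these pairs. With 1 library per group neither difference was tested.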

How the results depend on the processing

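No paired analysis was possible because each group has 1 library, and for the same reason no library could be left out of a comparison. Of 46 calls on FGF genes, 44 were kept with DESeq2 size factors and 42 in plain CPM; relative to the epithelial genes, 23 of 26 calls within epithelium were kept. No called ratio changed sign under these 3 scalings. Counts of called genes, which are small, moved by over 1.5 times as follows. Mutant mesenchyme higher, 4 genes, became 2 at 20 CPM and 0 at 4-fold; lower, 2 genes, became 1 and 0. E12.5 epithelium higher, 0 genes, became 1 at 1 CPM, 2 with no filter and 3 at 1.5-fold; lower, 1 gene, became 3 at 1 CPM, 4 with no filter, 3 at 1.5-fold, and 0 at 20 CPM, at 4-fold and relative to the epithelial genes. E14.5 epithelium higher, 8 genes, became 1 at 20 CPM, 2 at 4-fold and 13 relative to the epithelial genes; lower, 2 genes, became 1 in plain CPM and at 20 CPM, 5 at 1.5-fold, and 0 at 4-fold and relative to the epithelial genes. Mesenchyme above epithelium in controls, 6 genes, became 0 at 4-fold; below, 2 genes, became 4 at 1 CPM, 6 with no filter, 7 at 1.5-fold and 1 at 4-fold. In mutants, above, 3 genes, became 9 at 1.5-fold and 1 at 4-fold; below, 3 genes, became 5 with no filter and 6 at 1.5-fold. Stage in controls higher, 0 genes, became 1 at 1 CPM, 2 with no filter and 1 at 1.5-fold; lower, 6 genes, became 10 in plain CPM, 2 at 20 CPM, 10 at 1.5-fold, 3 at 4-fold and 13 relative to the epithelial genes. Stage in mutants higher, 3 genes, became 6 at 1 CPM and with no filter, 5 at 1.5-fold, and 0 at 20 CPM and at 4-fold; lower, 6 genes, became 2 at 4-fold. The cause of the scaling moves was not tested; the other moves follow from the filter or limit itself. A library's floor of 3 counts was 0.141 to 0.215 CPM.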

Other observations

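Some ligands below 5 CPM were seen in 1 or a few libraries only. Fgf20 had 22 counts in the E12.5 epithelium labelled mutant and 9 in the E14.5 control epithelium, and no read in the other 4; 12% of its exons overlap a gene on the opposite strand. Fgf3 had 11 counts in the E12.5 control epithelium and 3 in the E14.5 epithelium labelled mutant. Fgf16 had 51 and 9 counts in E12.5 epithelium (control and mutant), 24 and 24 in E14.5 epithelium and 0 and 2 in mesenchyme. Fgf14, an intracellular homologue, had 22 to 32 counts in each E12.5 library and none at E14.5.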
